A study of Drosophila melanogaster with 2 samples.

Results

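The genes described here encode the subunits of the proteasome, the particle that degrades ubiquitin-tagged proteins. They were chosen by name, as every gene of the RefSeq fly annotation whose symbol starts with Prosalpha, Prosbeta, Rpn or Rpt (Rpn and Rpt followed by a digit). This gave 48 genes, of which 38 had values among the 11256 genes of the 2 libraries. With a floor of 50 reads over both libraries, 29 of the 48 were measured, of 7822 measured genes in all.

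Poly(A) RNA was sequenced from heads of Canton-S flies (Drosophila melanogaster, a wild-type strain), which were adult females 3 to 5 days old. The control flies breathed ethanol-free air for 45 min. The ethanol flies breathed ethanol-saturated air for 15 min, until sedated, and ethanol-free air for the next 30 min. About 180 flies were pooled for each library, and there was 1 library in each group, so no difference is checked by replicates and the treatment effect has no p-value. The libraries held 11763222 (control) and 11027646 (ethanol) uniquely assigned reads. A fold or log2 ratio below is that of ethanol over control reads scaled to the library total (RPM), with a 95% Clopper-Pearson interval that covers counting error only. The RNA came from whole heads, in which fewer cells of a type and less RNA per cell cannot be told apart. Markers of head tissue were present (ninaE, a photoreceptor opsin, at 546212 and 452455 reads, and repo, a glial gene, at 702 and 741), whereas brp, a synaptic gene with 14 annotated transcripts, had 3 and 2 reads.

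The proteasome has a barrel-shaped core particle closed by a regulatory particle. Outer rings of alpha subunits form the gate of the core, and inner rings of beta subunits carry the proteolytic sites, which belong to Prosbeta1, Prosbeta2 and Prosbeta5. The base of the regulatory particle holds the Rpt ATPases, which unfold substrates, and the lid holds Rpn11, which removes ubiquitin from them. Cells are known to raise many subunit genes together when proteasome activity is limiting, in flies through the factor encoded by cnc.

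Proteasome genes differed little between the libraries. None of the 29 measured members was 2-fold higher or lower, against 1.75% and 0.741% of all measured genes. At such small shares, 0 of 29 does not set the members apart. At a modest limit, a log2 ratio of at least 0.32 in size with an interval that excludes 1, 3 of 29 were higher (10.3%, against 14.1% of all measured genes) and 0 were lower (against 7.54%). The 3 were the alpha ring genes Prosalpha4, Prosalpha5 and Prosalpha7, of which Prosalpha4 was under the limit with TMM (log2 ratio 0.31) or median-of-ratios scaling (0.29). The other 26 (89.7%) lay within 0.32 of a log2 ratio of 0, against 71% of all measured genes. The median log2 ratio of the 29 was 0.093, beside 0.049 over all measured genes, and the SD over members was 0.18, beside 0.38. Genes with few reads spread more by counting error, and most members were well expressed, so these shares and SDs depend on depth too. Among genes with transcripts covered at 90% or more, the SD was 0.16 over 25 members and 0.28 over 4030 measured genes. Of these 25 members, 2 were past the modest limit on the high side and 0 on the low side, against 11.6% and 5.56% of the 4030 genes. Depth still differed between these sets, with a median of 80.0 RPKM (reads scaled to transcript length and library total) for the 25 members and 21.4 RPKM for the 4030 genes in the control.

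With library totals, small shifts upwards outnumbered small shifts downwards, and with the length trend described below removed they did not. The interval lay above 1 for 13 of 29 members (44.8%, against 23.9% of all measured genes) and below 1 for 2 (6.9%, against 15%). More reads give narrower intervals, and most members were well expressed, so these shares depend on depth as well as on size. They also depend on the processing. With TMM scaling, which moves every log2 ratio by -0.050, intervals lay above 1 for 8 members and below 1 for 6, and with median-of-ratios scaling for 6 and 6. With the length trend removed the counts were 4 above and 7 below. Over 8 settings, 3 members (Prosalpha4, Prosalpha7 and Prosbeta6) had the interval above 1 in each and 2 (Prosbeta3 and Rpn8) below 1 in each, 9 had an interval that included 1 in each, and for 15 it depended on the setting. Such counts were not made over all measured genes, so they are not read as a trait of the members. Over all measured genes, the higher share of the calls at the modest limit was 65.2% with library totals, 52.7% with TMM and 49.3% with median-of-ratios scaling. Summed over all 38 members with values, there were 33287 control and 32865 ethanol reads, which made 2830 and 2980 RPM, a 1.05-fold ratio (interval 1.04 to 1.07). In the authors' deposited table, 9 of 40 member transcripts had an FDR under 0.05 (22.5%, against 17.6% of all 15090 transcripts), 7 of the 9 with a ratio above 1 (77.8%, against 60.6% of all transcripts under that FDR).

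**Figure D1:**
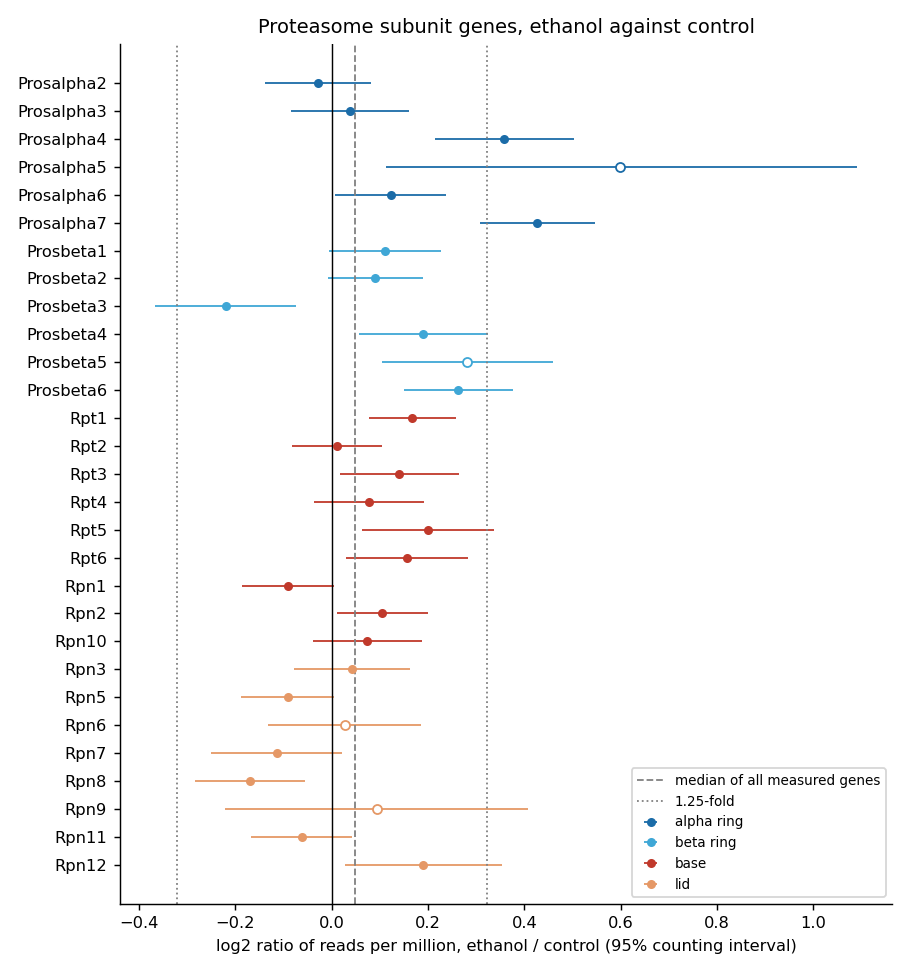
Log2 ratio (ethanol over control) of the 29 measured subunit genes on the x axis, with 95% counting intervals as bars and colours for the 4 subcomplexes. Open points are genes whose transcript was covered under 90%. Dotted lines mark a log2 ratio of 0.32 either way and the dashed line the median of all measured genes (0.049). Prosalpha4, Prosalpha5 and Prosalpha7 lie beyond the dotted line, and lid genes lie on both sides of 0.

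Members of the core particle were higher than those of the regulatory particle in the median. The core particle went from 11843 reads (1007 RPM) to 12285 (1114 RPM), a 1.11-fold ratio (interval 1.08 to 1.14). The regulatory particle went from 21405 reads (1820 RPM) to 20536 (1862 RPM), a 1.02-fold ratio (1.004 to 1.04). On the log2 scale that ratio is 0.033, less than the TMM shift. The median log2 ratio was 0.16 over the 12 measured core genes and 0.074 over the 17 measured regulatory genes, a difference of 0.082. Intervals lay above 1 for 7 of 12 core genes and 6 of 17 regulatory genes, and below 1 for 1 of each, against 23.9% above and 15% below over all measured genes. With TMM scaling they lay above 1 for 6 core and 2 regulatory genes and below 1 for 1 and 5 (18.9% and 19.5% of all measured genes). With the length trend removed they lay above 1 for 3 core and 1 regulatory genes and below 1 for 2 and 5 (17.3% and 18% of all measured genes). The genes are not replicates of a condition, so this difference is a description of these libraries.

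Transcript length moved with that difference. Shorter transcripts had higher ratios over all measured genes, and core transcripts were short (median 962 nt, against 1490 nt for the regulatory particle and 1900 nt for all measured genes). RNA integrity numbers were 6.80 for the control and 6.40 for the ethanol sample, and their part in the trend was not tested. The lowess trend of log2 ratio on length stood at 0.14 at the median core length and 0.093 at the median regulatory length. With that trend removed, the medians were 0.021 (core) and -0.026 (regulatory), a difference of 0.046, and the median of the 29 members was -0.017. The log2 ratio was then 0.29 for Prosalpha7 (interval 0.17 to 0.41) and 0.23 for Prosalpha4 (0.087 to 0.38), both still above 0 and under the modest limit. For Prosalpha5 it was 0.46, with an interval (-0.023 to 0.95) that included 0. Prosbeta3 passed the limit on the low side (-0.36).

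**Figure D2:**
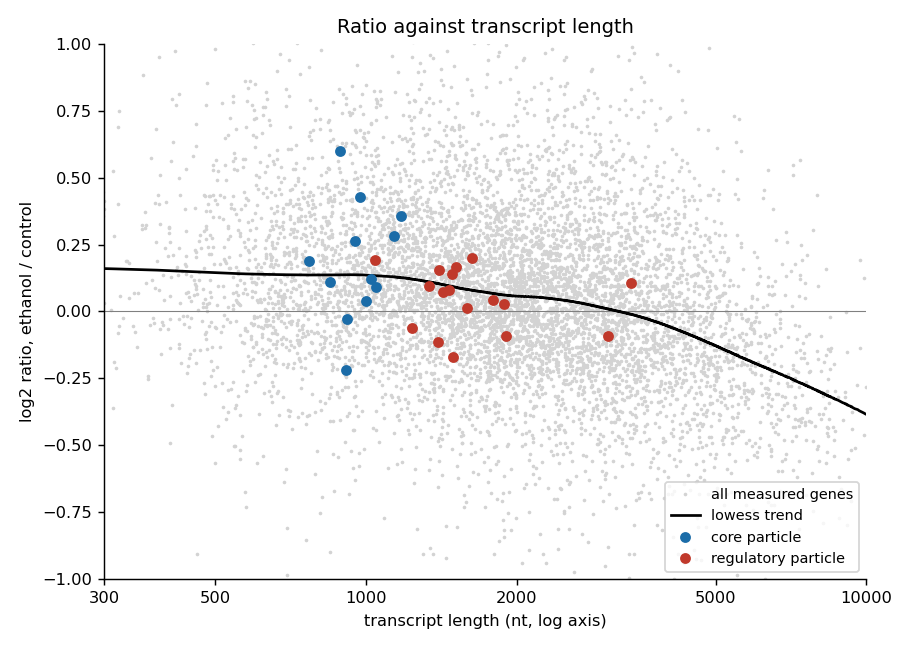
Log2 ratio (ethanol over control, y axis) against transcript length in nucleotides (log x axis). Grey points are measured genes, the black line is their lowess trend, blue points are core and red points regulatory subunits. The trend falls with length, and the core genes lie at its short end.

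**Figure D3:**
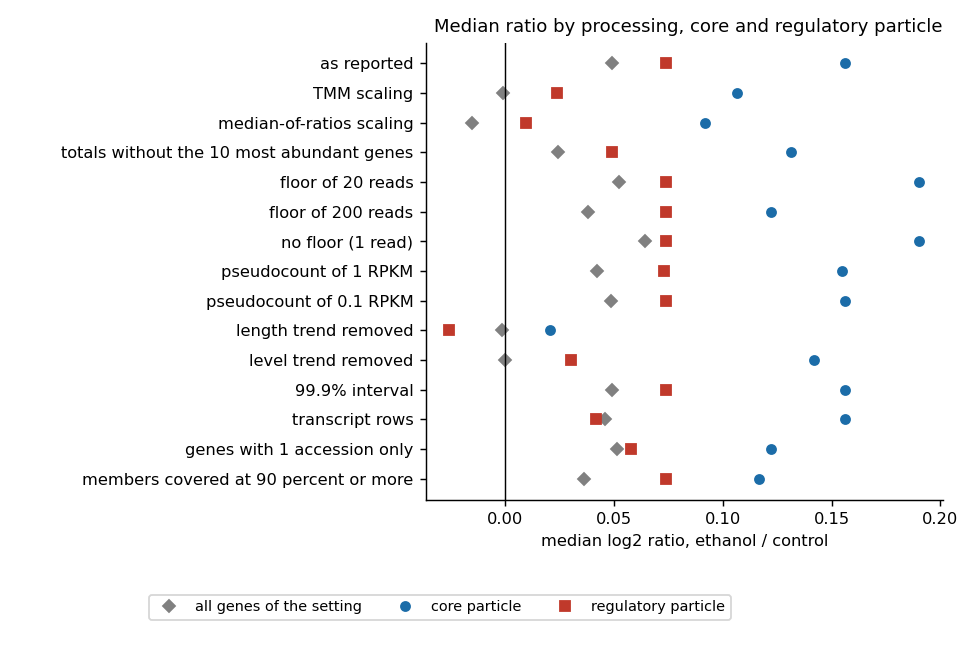
Median log2 ratio (ethanol over control, x axis) of core genes (blue circles), regulatory genes (red squares) and all genes (grey diamonds) under each processing (y axis). The core median lies to the right of the regulatory median in every one of the 15 rows, and both move towards 0 with the length trend removed.

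Within the alpha ring, the measured genes with the largest ratios were Prosalpha5, Prosalpha7 and Prosalpha4. Prosalpha7 (NM_165703) had 1029 control and 1297 ethanol reads, or 89.8 and 121 RPKM (reads scaled to transcript length and library total), a 1.34-fold ratio (interval 1.24 to 1.46). Prosalpha4 (NM_080353) had 719 and 864 reads, or 52.0 and 66.7 RPKM (1.28-fold, 1.16 to 1.42). Both were higher in the ethanol library by more than counting error, and their transcripts were covered at 95.57% or more. In the authors' deposited table their FDR values were 5.04e-11 for Prosalpha7 and 1.85e-05 for Prosalpha4, from a test that the sources used here do not name and that compares these libraries only. Prosalpha5 (NM_166221) had the largest ratio of all measured members, 1.51-fold, on 62 and 88 reads (interval 1.08 to 2.13). Its FDR in the authors' deposited table was 0.0626.

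Neighbouring alpha subunits were close to 1. Prosalpha2 had 1404 and 1290 reads (0.98-fold, interval 0.91 to 1.06), and Prosalpha3 had 1093 and 1052 (1.03-fold, 0.94 to 1.12). Both intervals included 1, and that of Prosalpha7 overlapped neither. Prosalpha6 had 1225 and 1250 reads (1.09-fold, 1.01 to 1.18). Prosalpha1 was under the floor, with 8 and 16 reads. Its close copy Prosalpha1R, in which reads of the same sequence could also be placed, was not analysed here.

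In the beta ring, 5 of 6 measured genes were above 1, beside 4460 of all 7822 measured genes. Prosbeta1 and Prosbeta2 lay below 1 with the length trend removed. Prosbeta1, the caspase-like subunit, had 1204 and 1219 reads (1.08-fold, interval 0.997 to 1.17). Prosbeta2, the trypsin-like subunit, had 1661 and 1658 (1.06-fold, 0.994 to 1.14). The intervals of both included 1. Prosbeta5, the chymotrypsin-like subunit, had 494 and 563 reads over 2 transcripts (1.22-fold, 1.08 to 1.37). Its transcripts differed in direction, since NM_143757 went from 467 to 546 reads (log2 ratio 0.32, from 0.14 to 0.50) and NM_165801 from 27 to 17. For the second the log2 ratio was -0.57, and its interval (-1.54 to 0.35) included 0.

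The structural beta subunits split. Prosbeta6 had 1208 and 1359 reads (1.20-fold, 1.11 to 1.30), and Prosbeta4 had 876 and 937 (1.14-fold, 1.04 to 1.253). Prosbeta3 had 860 and 692 reads, the lowest ratio of the measured members (0.86-fold, interval 0.78 to 0.95), so it differed in direction from both, and its interval overlapped neither. In the authors' deposited table the FDR was 7.58e-05 for Prosbeta6 and 0.0202 for Prosbeta3. Prosbeta7 was not analysed here.

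All 6 ATPase genes of the base, a subset taken after values were seen, were above 1, as were 4460 of all 7822 measured genes. The exceptions were Rpt2 with the other scalings or the trend on level removed, and Rpt2 and Rpt4 with the length trend removed. Of the 6 intervals, 4 lay above 1 (against 23.9% of all measured genes). With TMM scaling 2 did (against 18.9%), with median-of-ratios scaling 1 (against 17.4%) and with the length trend removed 0 (against 17.3%). Rpt5 had 847 and 912 reads (1.15-fold, interval 1.04 to 1.26), and Rpt1 had 1968 and 2072 (1.12-fold, 1.06 to 1.20). Rpt6 had 989 and 1033 reads (1.11-fold, 1.02 to 1.22), and Rpt3 had 1053 and 1088 (1.10-fold, 1.01 to 1.20). For Rpt4 (1259 and 1246 reads, 1.06-fold) and Rpt2 (1937 and 1830 reads, 1.01-fold) the intervals included 1. The ATPases form a hetero-hexameric ring, and their log2 ratios lay between 0.011 and 0.20, with an SD of 0.069 over the 6 genes. Among the non-ATPase subunits of the base, Rpn2, a large scaffold protein, had 1825 and 1840 reads (1.08-fold, 1.01 to 1.15). Rpn1, the other large scaffold, had 1908 and 1680 (0.94-fold, 0.88 to 1.003). With TMM or median-of-ratios scaling the interval of Rpn2 included 1 and that of Rpn1 lay below 1. Rpn10, a ubiquitin receptor, had 1280 and 1263 (1.05-fold, 0.97 to 1.14). The receptor gene Rpn13 was not analysed here.

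Genes of the lid lay lower than those of the base in the median. The lid went from 8339 reads (709 RPM) to 7572 (687 RPM), a 0.97-fold ratio (interval 0.939 to 0.9993). Of the 8 measured lid genes, 4 had ratios above 1 and 4 below (4460 and 3362 of all 7822 measured genes). The median log2 ratio of the lid genes was -0.018, beside 0.10 for the 9 measured base genes. Rpn8, the partner of Rpn11, had 1363 and 1136 reads (0.89-fold, interval 0.82 to 0.96) and was, with library totals, the 1 lid gene with an interval below 1. With TMM or median-of-ratios scaling or the length trend removed, the intervals of Rpn5, Rpn7 and Rpn11 also lay below 1, which made 4 of 8. Of all measured genes, 19.5%, 20.8% and 18% had intervals below 1 under these 3 settings. Rpn11, the deubiquitinase, had 1566 and 1406 reads (0.96-fold, 0.89 to 1.03). Rpn8 had an FDR of 0.0238 in the authors' deposited table. The PCI-domain subunits Rpn7 (949 and 822 reads, 0.92-fold) and Rpn5 (1872 and 1647, 0.94-fold) had intervals that included 1, as did Rpn3 (1146 and 1106, 1.03-fold), Rpn6 (669 and 639, 1.02-fold) and Rpn9 (171 in each library, 1.07-fold). Rpn12 had 603 and 645 reads (1.14-fold, 1.02 to 1.28), the 1 lid gene with an interval above 1, which included 1 under those 3 settings. Lid and base transcripts were of similar median length (1442 and 1513 nt). With the length trend removed, the median log2 ratio was -0.094 for the lid and 0.047 for the base, so the difference was as large as without it. Sem1, a small lid subunit whose symbol is outside the naming rule, had 930 and 969 reads (1.11-fold, 1.01 to 1.22). Its interval included 1 with the other scalings and with the length trend removed.

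Per length, the 29 measured members spanned a 22.7-fold range in the control and a 15.9-fold range in the ethanol library. The range was narrower among those with well covered transcripts, a choice that also leaves out genes with few reads for their length. The 25 measured members with transcripts covered at 90% or more lay between 44.3 RPKM (Rpt5) and 135 RPKM (Prosbeta2) in the control, a 3.04-fold range. In the ethanol library they lay between 49.2 RPKM (Rpn2) and 143 RPKM (Prosbeta2), a 2.91-fold range. The median over all measured genes was 12.0 RPKM (control) and 12.4 RPKM (ethanol). Over the 4030 measured genes covered at 90% or more it was 21.4 RPKM (control) and 22.4 RPKM (ethanol). Core genes were the higher set, with a median of 99.2 RPKM (control) and 116 RPKM (ethanol) over 10 genes, beside 60.2 and 67.1 over 15 regulatory genes. The order of the 25 genes was nearly the same in both libraries (Spearman's rho 0.95 across genes, which are not replicates and share length and library).

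The other 4 measured members, Prosbeta5, Rpn6, Rpn9 and Prosalpha5, had the lowest levels, between 5.94 RPKM (Prosalpha5) and 37.0 RPKM (Prosbeta5) in the control. Reads covered between 23.17% and 37.85% of their transcripts, against at least 92.85% for the 25 others. Each has 2 or 3 annotated transcripts in RefSeq, as do some of the 25 well covered members, among them Rpn2 (3), Rpn8 (3) and Rpt3 (2). The sources used here do not say how reads shared by transcripts of a gene were treated, so these 4 levels may not be those of the whole gene. Without them, the core and regulatory medians were 0.12 and 0.074.

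**Figure D4:**
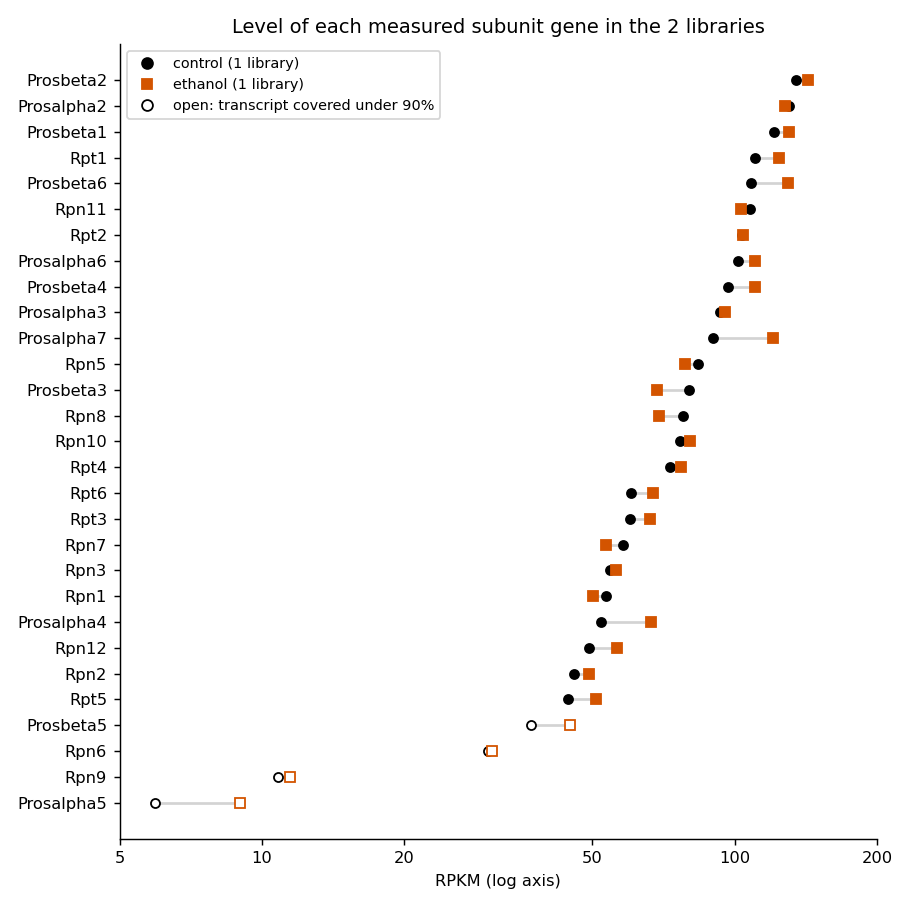
RPKM (log x axis) of each measured subunit gene in the control library (black circles) and the ethanol library (orange squares), ordered by the control value. Open symbols mark the 4 genes with transcripts covered under 90%, which lie at the bottom. The other 25 genes lie between 44.3 and 143 RPKM.

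Of the 16 paralogues that the rule also takes, many of which are known as testis forms of a subunit, none was measured. The 8 with values had 39 control and 44 ethanol reads in all. Rpt4R had 22 and 15 reads, and Rpn13R had 9 in each library. Prosalpha4T1, Prosalpha6T, Prosalpha4T2 and Prosbeta2R2 had 0 control reads and 6, 4, 2 and 2 ethanol reads. A count of 0 allows up to 0.255 RPM in the control, so at this depth no difference could be detected for 3 of the 4, and the interval of Prosalpha4T1 started at 1.26-fold. In the authors' deposited table the FDR of Prosalpha4T1 was 0.0646. Of 9 markers of testis and male tract, 4 had values, with 74 control and 42 ethanol reads, of which twe, a meiotic phosphatase gene, had 66 and 38. The sperm gene Mst87F had 2 and 4 reads. The 8 other paralogues (Prosalpha1R, Prosalpha3T, Prosbeta2R1, Prosbeta4R1, Prosbeta4R2, Prosbeta5R1, Prosbeta5R2 and Rpn12R) were not analysed here.

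Genes that assemble or activate the proteasome (4 measured of 5) were all above 1, as were 4460 of all 7822 measured genes. Pomp lay below 1 with the length trend removed. Pomp, the chaperone of core assembly, had 1318 and 1324 reads (1.07-fold, interval 0.992 to 1.16), which included 1. REG, the alternative nuclear activator, had 1587 and 1659 (1.12-fold, 1.04 to 1.20). The interval of REG included 1 with median-of-ratios scaling and with the length trend removed. PI31, a binding partner of the core, had 18 and 34 reads (2.01-fold, 1.11 to 3.79), the 1 gene of the list of 4 past 2-fold (against 1.75% of all measured genes). It was under 2-fold in all 7 alternatives (log2 ratios 0.66 to 0.99), with an interval above 1 in each. PI31 was counted on 3 of 5 annotated transcripts, at coverages of 17.23% and 27.3%. Its F-box partner ntc had 170 and 215 reads (1.35-fold, 1.10 to 1.66). The median log2 ratio of these 4 was 0.29, and with the length trend removed 0.20.

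Receptors and deubiquitinases that work on the particle varied in direction, with 3 of 5 intervals above 1 and 1 below. Of all measured genes, 23.9% had intervals above 1 and 15% below. Rad23, a shuttle receptor, had 97 and 146 reads (1.61-fold, 1.23 to 2.10) at coverages of 27.08% and 27.22%. It was the 1 of 5 past the modest limit, on the high side (against 14.1% of all measured genes). Usp14, a deubiquitinase, had 632 and 706 reads (1.19-fold, 1.07 to 1.33). The protease-like shuttle gene rngo (the fly Ddi1) had 827 and 900 (1.16-fold, 1.06 to 1.28). Ubqn, another shuttle receptor, named after its values were seen, had the interval below 1 (2896 and 2487 reads, 0.92-fold, 0.87 to 0.97). Of the 4 ubiquitin genes, the polyubiquitin genes Ubi-p63E (674 and 635 reads, 1.005-fold, 0.90 to 1.12) and Ubi-p5E (14870 and 14065, 1.01-fold, 0.986 to 1.03) had intervals that included 1, although that of Ubi-p5E lay below 1 with TMM or median-of-ratios scaling or the length trend removed. The ubiquitin-ribosomal fusion genes RpL40 (42630 and 36383 reads, 0.91-fold, 0.898 to 0.923) and RpS27A (54386 and 46856, 0.92-fold, 0.908 to 0.930) had intervals below 1.

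Among 12 measured enzymes of ubiquitin activation and conjugation, 3 (25%) were past the modest limit on the high side and 0 on the low side, against 14.1% and 7.54% of all measured genes, and the median log2 ratio was 0.11. Ubc2 had 158 and 248 reads (1.67-fold, interval 1.37 to 2.06). The conjugating enzyme gene ben had 487 and 695 reads (1.52-fold, 1.35 to 1.71), and Uev1A, which encodes the partner of the ben product in building signalling ubiquitin chains, 777 and 1071 (1.47-fold, 1.34 to 1.61). Their log2 ratios (0.74, 0.61 and 0.56) stand beside 0.60 for Prosalpha5, the highest subunit. Reads covered 43.63% and 41.66% of the Ubc2 transcript and 27.72% and 25.37% of that of Uev1A. The levels of Ubc2 and Uev1A may therefore not be those of the whole gene.

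The segregase genes, whose products pull ubiquitylated proteins out of complexes, had 0 of 4 past the modest limit. Of all measured genes, 14.1% were past it on the high side and 7.54% on the low side. TER94, the ATPase of that complex, had 475 and 523 reads (1.17-fold, 1.04 to 1.33), counted on 3 of 4 annotated transcripts at coverages of 12.06% and 12.33%. The interval of TER94 included 1 with median-of-ratios scaling. Its cofactors Ufd1 (594 and 508 reads, 0.91-fold) and p47 (1163 and 1008, 0.92-fold) had intervals that included 1 with library totals and lay below 1 with TMM or median-of-ratios scaling or the length trend removed. Of 5 regulators of proteasome genes, 3 were measured (cnc, maf-S and rngo) and 0 passed the modest limit, beside the same shares of all measured genes. For cnc, which was counted on 3 of 16 annotated transcripts, 446 control and 419 ethanol reads were found. Its log2 ratio was 0.0031, with an interval from -0.19 to 0.20 that included 0. With the length trend removed it was 0.24, with an interval above 0 (0.040 to 0.43). Its partner maf-S had 1200 and 1179 reads (1.05-fold, 0.97 to 1.14).

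**Figure D5:**
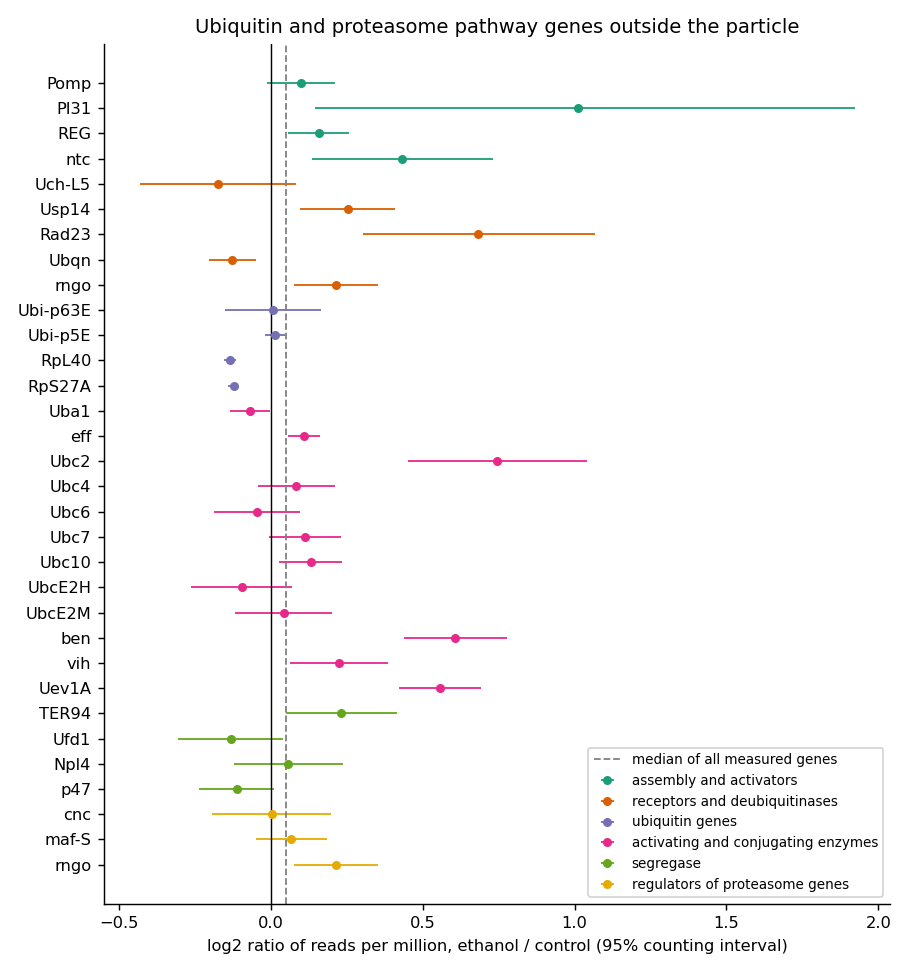
Log2 ratio (ethanol over control, x axis) of measured genes of the ubiquitin and proteasome pathway outside the particle, with 95% counting intervals as bars and colours for the 6 lists. The dashed line is the median of all measured genes (0.049). PI31, Ubc2, Rad23, ben and Uev1A have the largest ratios, and rngo appears in both lists that hold it.

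Other multi-subunit complexes gave medians on either side of that of the proteasome. The 6 measured genes of the CCT chaperonin, a folding chamber for actin and tubulin, had a median log2 ratio of 0.10. Of the 6, 1 was past 2-fold on the high side (against 1.75% of all measured genes), CCT2 (72 and 162 reads, 2.40-fold, interval 1.81 to 3.21, coverage 11.32% and 15.46%). The 7 measured genes of the COP9 signalosome, whose subunits are related to those of the lid, had a median of -0.0048. They had 0 intervals that excluded 1 (1 with the length trend removed), against 23.9% above and 15% below over all measured genes. The 10 measured genes of the vacuolar ATPase had a median of -0.025. On the high side, 2 were past the modest limit (Vha26, 1.37-fold, and Vha14-1, 1.29-fold), against 14.1% of all measured genes. Vha26 was covered at 13.7% and 14.93%. Vha14-1 was under the limit with TMM or median-of-ratios scaling and with the length trend removed. On the low side, 1 was past the limit (against 7.54%), Vha36-3 (454 and 292 reads, log2 ratio -0.54, -0.76 to -0.33). No test of these differences is possible with 1 library in each group.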

How the data were processed

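RNA of 1 control and 1 ethanol pool was counted. Per the file headers, the authors deposited for each RefSeq transcript accession the count of reads assigned to it uniquely (raw), its RPKM and the percent of its length that reads covered. A further table that the authors deposited holds p-values, FDR values and a log2 ratio. The submitters' processing notes name build BDGP 5. The sources used here do not name the aligner, the counter, strand use or the authors' test.

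Accessions (14521 of 15090) were matched to symbols of RefSeq Release 6, used for names only, and reads and RPKM were summed for each gene. Length and coverage are those of the accession with most reads. In the Ensembl 115 annotation, 12 measured members share exonic bases with a gene on the opposite strand, at most 13% (Rpt6), and such reads cannot be told apart.

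Ratios used library totals. The floor for a measured gene was 50 reads. With 1 library in each group there is no test; calls needed 2-fold or a log2 ratio of 0.32 and a 95% Clopper-Pearson interval excluding 1. A count of 0 allows 3 reads. Measured members were all named, with up to 3 genes of largest absolute ratio from each list and 7 fixed genes (Pomp, REG, PI31, TER94, Ubi-p63E, cnc and rngo). The members and lists were chosen with earlier results of these data known. Ecm29, Ubc87F and CSN1a, and promoter motifs, were not analysed here. The functions were tested on simulated counts. Python 3.11.15, SciPy 1.17.1, statsmodels 0.14.6 and edgeR 4.0.16 (TMM only) were used.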

Additional observations from a re-analysis of the deposited data

How the results depend on the processing

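Alternatives were 3 other scalings, read floors of 20, 200 and 1, a pseudocount of 1 or 0.1 RPKM, lowess trends (fraction 0.3) on length or level removed, a wider interval, transcript rows, genes with 1 accession and, chosen after seeing the data, members covered at 90% or more. With no floor, 1 member was past 2-fold on the high side (Prosalpha4T1, 0 and 6 reads), and at a 1.5-fold limit 1 was (Prosalpha5). With the length trend removed, 0 members had both a log2 ratio of at least 0.32 and an interval above 0 (Prosalpha5, at 0.46, had an interval that included 0) and 1 was called on the low side (Prosbeta3), and the median of the members turned to -0.017. The part of RNA integrity in that trend was not tested. Otherwise the median lay between 0.029 (median-of-ratios scaling) and 0.10 (mean in place of median). The core median exceeded the regulatory median in all 15 settings with medians, by 0.043 to 0.12. In the same 15 the base median exceeded the lid median, by 0.12 to 0.18. Another scaling or a wider interval cannot change such differences, and the read floors left that of base and lid unchanged. The 15 settings are therefore not independent checks. Over 8 settings, 12 of the 29 measured members stayed above 0, 7 stayed below 0 and 10 changed sign, among them Prosbeta1, Prosbeta2 and Rpt2. This count was not made over all measured genes. Of 406 values of named genes, 379 stayed within the counting interval of the reported ratio and 27 moved beyond it. Of the called ones 0 reversed, which tells little, since they were at least 0.32 in size and the scalings and trends moved them by less. No paired analysis was possible because each group has 1 library. For members with few reads (Prosalpha1 and the paralogues), the number of reads limits what can be said of their ratios. Why Prosalpha1 had few reads was not tested.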
